A study of Mus musculus with 4 samples.

Results

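Spliceosome, SR protein and hnRNP genes were taken from the deposited count table by name: protein-coding rows whose symbol begins with Srsf, Hnrnp, Sf3a, Sf3b, Snrp, Prpf or U2af, leaving out the imprinted gene Snrpn. Of the 56748 rows, 21970 were protein-coding. The name pattern matched 73 rows, of which 5 were processed pseudogenes, and 67 genes remained after Snrpn was set aside. They comprised 11 SR genes, 20 hnRNP genes, 9 SF3 genes, 11 Snrp genes, 13 Prpf genes and 3 U2af genes. Of these, 66 had enough reads to be tested. U2af1l4 did not: WT1 and WT2 had 4 and 1 reads of it, KO1 and KO2 had 3 and 1.

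Introns are removed by the spliceosome, which is assembled from small nuclear ribonucleoproteins (snRNPs), each a small nuclear RNA with a ring of Sm proteins and its own further proteins. U2af and the SF3 complexes place the U2 snRNP at the branch point, while Prpf proteins sit mainly in the later U4/U6.U5 complex and in the activated spliceosome. SR proteins mostly promote the use of a splice site and hnRNP proteins often repress it, so that the balance between them helps to decide which exons are kept.

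E14 cells, a mouse embryonic stem cell line, were profiled by RNA-seq in 2 libraries of genotype WT and 2 libraries of genotype Npac knockout. Npac, listed as Glyr1, encodes a reader of tri-methylated histone H3 lysine 36. The KO lines were made from E14 cells by electroporation of Cas9 and guide RNA plasmids aimed at exon 3, puromycin selection and picking of colonies, so that each line goes back to a picked colony. All cells were grown without feeders on gelatin in medium with serum and LIF. KO1 and KO2 are 1 library each, and no source says whether WT1 and WT2 came from separate cultures, so p-values measure the spread between these 4 libraries, which may be partly technical. The comparison asked whether transcripts of the splicing machinery differed in abundance between Npac KO and WT cells. It holds gene levels only and no splicing events, and in bulk RNA a change in the number of cells expressing a gene and a change in RNA per cell cannot be told apart.

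Between 15850805 and 16965120 reads were counted per library, and 1.69% to 1.99% of them fell on the 67 genes. Glyr1 had 259 and 178 CPM (counts scaled to library size by TMM) in WT cells against 47.9 and 51.3 CPM in Npac KO cells. Its log2 fold change was -2.14 (SE 0.23) with an adjusted p of 0.00174 by the quasi-likelihood test of edgeR, Benjamini-Hochberg adjusted. The 8 ES cell markers were all detected and their summed level was 7054 and 5744 CPM in WT cells against 4890 and 4632 CPM in Npac KO cells. Only Zfp42 among them was called, with 945 and 697 CPM against 134 and 129 CPM (log2 fold change -2.64, SE 0.22, edgeR adjusted p = 0.000704), while Dppa5a and Utf1 had higher means in Npac KO cells (120.5% and 139.6% of the WT mean) and were not called. The 5 trophoblast markers summed to 60.7 and 44.4 CPM in the WT pair and to 169 and 147 CPM in the KO pair, of which Tfap2c alone, the only one called, made up 50.7 and 31.7 against 155 and 134 CPM. Eomes overlapped between the genotypes, and Cdx2, Elf5 and Hand1 were under 5 CPM in every library. The other lists lay between 18.1 and 59.1 CPM in every library, with 1 gene called in each, and among 6 fibroblast markers Col3a1 and Dcn were at 0 throughout. The part of these markers in the results was not tested.

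Of the 66 genes tested, 8 were called up-regulated in Npac KO cells (12.1%) and 2 were called down-regulated (3.03%), where a call needs both an adjusted p below 0.05 and more than a 1.5-fold change. Among all 18157 genes tested, 11.0% were called higher and 10.7% lower, so that the up-regulated share was close to the background and the down-regulated share was below it. The up-regulated genes were Srsf12, Prpf39, Sf3b3, Sf3b5, Hnrnpab, Hnrnpa1, Sf3a1 and Prpf3, and the down-regulated genes were Hnrnph3 and Srsf5. At an unadjusted p under 0.05, 10 genes were higher (15.2%, against 18.7% of all genes tested) and 5 lower (7.58%, against 18.8%). The counts moved with single libraries: 2 genes were called higher without KO1, 4 without KO2 and 11 without either WT library, while 0 were called lower without KO1 or KO2 and 6 without WT2. Prpf39 was the only one of the 10 that was called whichever of the 4 libraries was left out.

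For most of the genes the difference was small. The change was smaller than 1.5-fold in 52 of 66 genes (78.8%), the median log2 fold change was 0.092 against 0.0015 over all genes tested, and 56 genes were not called. The KO pair lay wholly above the WT pair in 21 genes (31.8%, against 33.2% of all genes tested) and wholly below it in 13 (19.7%, against 32.5%), and the genotypes overlapped in the other 32. An uncalled gene is not thereby shown to be equal in the genotypes, and the standard errors of the log2 fold changes ran from 0.17 to 0.48.

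**Figure D1:**
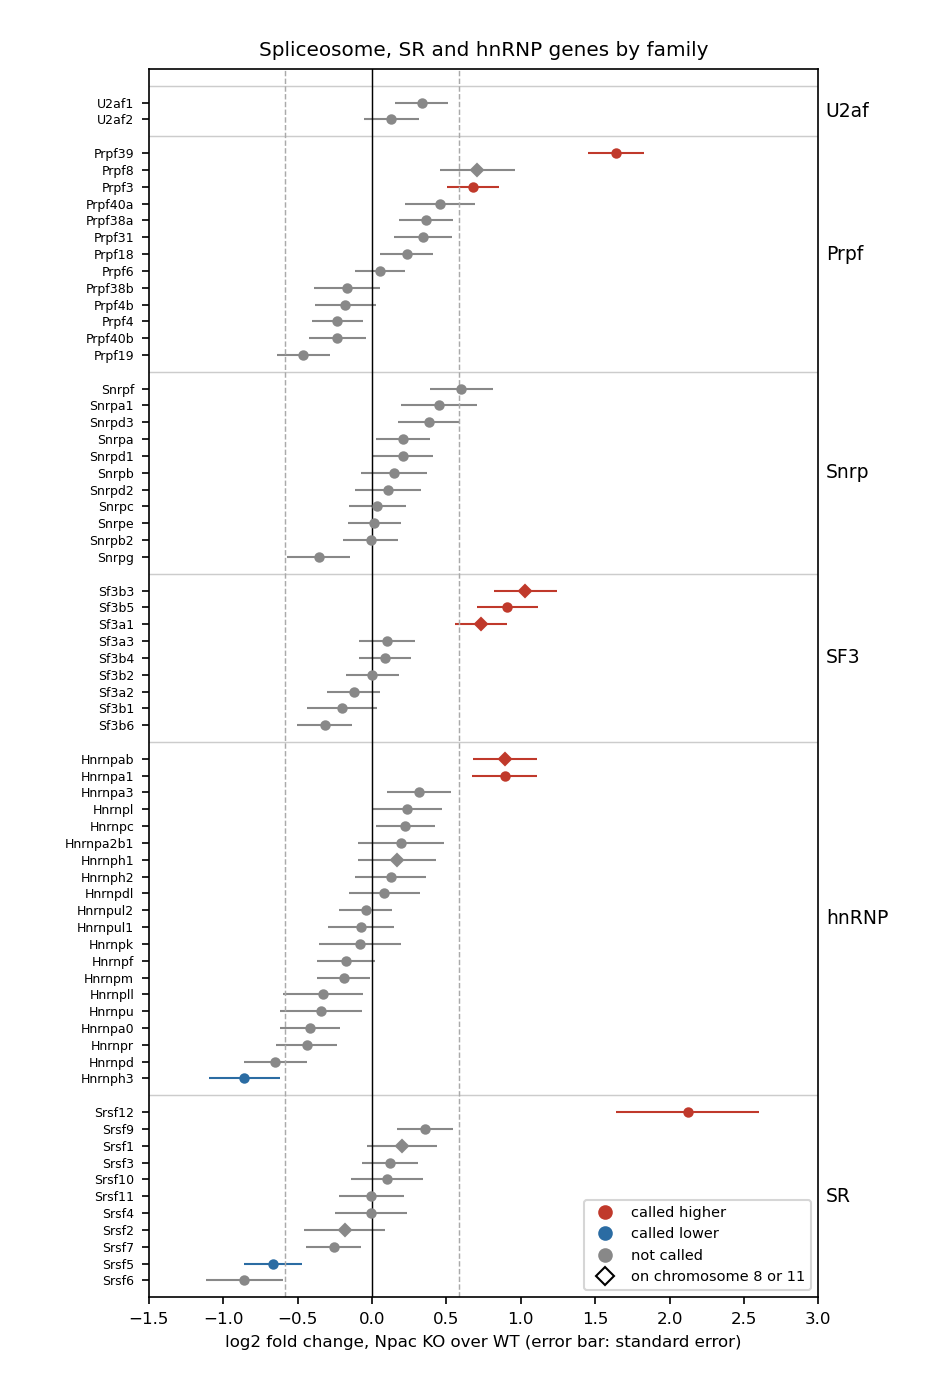
Log2 fold change of Npac KO over WT cells for the 66 genes tested, grouped by family on the vertical axis, with bars for the standard error of the fit, red for genes called higher, blue for genes called lower and diamonds for genes on chromosomes 8 and 11; dashed lines mark a 1.5-fold change. The 8 red and 2 blue genes stand outside the dashed lines, and no Snrp or U2af gene is coloured.

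By family, the median log2 fold change was -0.004 for SR genes, -0.06 for hnRNP genes, 0.09 for SF3 genes, 0.15 for Snrp genes, 0.23 for Prpf genes and 0.23 for the 2 U2af genes tested. Calls came from SR genes (1 higher, 1 lower), hnRNP genes (2 higher, 1 lower), SF3 genes (3 higher) and Prpf genes (2 higher), and none came from Snrp or U2af genes. In Prpf genes the KO pair was wholly above the WT pair in 8 of 13 and below in 2. In hnRNP genes it was above in 3 of 20 and below in 5. Over all genes tested, 33.2% were wholly above and 32.5% wholly below, and 11.0% were called higher and 10.7% lower. Among the called genes, Sf3b3, Sf3a1 and Hnrnpab lie on chromosomes 8 and 11, which were shifted as a whole (described below). There 645 of 2434 genes tested were called higher. No family was tested as a set, and the medians are a description.

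The WT libraries differed from each other as much as the genotypes did in several families. WT1 was above WT2 in 9 of 11 SR genes (median log2 difference 0.50) and in 18 of 20 hnRNP genes (0.32), but in only 1 of 11 Snrp genes (-0.36). Summed over the SR genes, the level was 4175 and 3029.8 CPM in the WT pair and 3340.5 and 2974 CPM in the KO pair, so that KO1 lay inside the WT range and KO2 just below it. The hnRNP sum was 10400.2 and 7656 CPM in WT cells against 10621 and 9082 CPM in Npac KO cells, and these ranges overlapped. The genotypes were apart for the SF3 sum (1812 and 1515 CPM in the WT pair, 2075 and 1871 CPM in the KO pair). They were also apart for the Prpf sum (2218 and 1852 against 2601 and 2364 CPM), and overlapped for the Snrp sum (1327 and 1577 against 1693 and 1499 CPM). The Prpf sum holds Prpf8 (743 and 489.7 against 1122 and 892 CPM). The SF3 sum holds Sf3b3 (255 and 191 against 491 and 421 CPM) and Sf3a1 (149 and 135 against 238 and 233 CPM). Those genes lie on chromosomes 8 and 11, which were shifted as a whole (described below). Neither sum by itself thus shows a rise across its family.

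Gene length moved with this split of the WT pair. Over the 66 genes, the log2 difference of WT1 and WT2 correlated with the gene length in the table at a Spearman rho of 0.53, against -0.13 for the difference of KO1 and KO2; over all 18157 genes tested the same values were 0.21 and -0.05. The points share their 4 libraries, so no p is given, and the part of length in the results was not tested. WT1 and WT2 stood over 1.5-fold apart in 14 of the 66 genes, and KO1 and KO2 in 0.

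**Figure D2:**
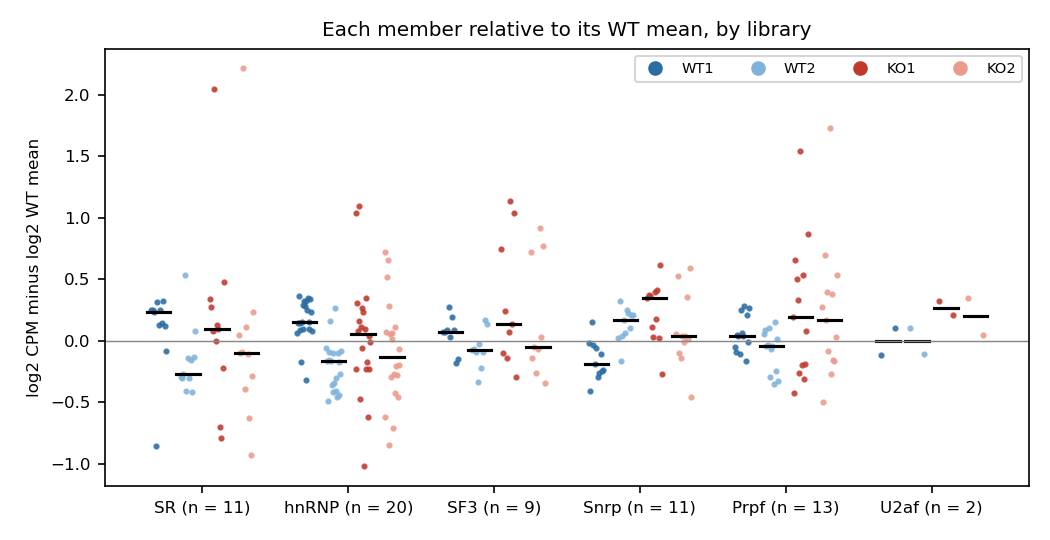
Log2 CPM of each gene minus the log2 of its WT mean, on the vertical axis, by family and library; each point is a gene and each black bar is the median of a family in a library. WT1 stands above WT2 for SR (median bars 0.23 and -0.27) and hnRNP genes and below it for Snrp genes (-0.19 and 0.17), and the KO medians of SR genes (0.09 and -0.10) fall between those of the WT libraries.

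Among SR genes, Srsf12, a less abundant family member, rose most. It had 1.38 and 3.61 CPM in WT cells against 10.3 and 11.6 CPM in Npac KO cells (21, 63, 160 and 200 reads), and the genotypes did not overlap. The log2 fold change was 2.12 (SE 0.48, edgeR adjusted p = 0.0206). Its level per length was the lowest of the 66 genes, with a mean of 2.11 FPKM over the 4 libraries, and without KO2 the adjusted p was 0.0531. Srsf12 (ENSMUSG00000054679) lies on chromosome 4 from 33208991 to 33233340 in the deposited table.

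Srsf5, an SR protein that acts on splice site choice, fell. Its level was 788 and 637 CPM in WT cells against 437 and 459.9 CPM in Npac KO cells, 62.9% of the WT mean, with no overlap. The log2 fold change was -0.67 (SE 0.19, edgeR adjusted p = 0.0457), close to the threshold: it was -0.66 with limma-trend on FPKM values (adjusted p = 0.0564) and -0.53 without WT1, which is under 1.5-fold. Without KO1 or KO2 the adjusted p was 0.268 and 0.222. Srsf5 (ENSMUSG00000021134) lies on chromosome 12 from 80992278 to 80997281.

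Srsf6, a related SR protein, had the largest negative value of the family but was not called. It had 621 and 370.5 CPM in WT cells against 287 and 260.3 CPM in Npac KO cells, again with no overlap but with WT1 far above WT2. The log2 fold change was -0.86 (SE 0.26, edgeR adjusted p = 0.0522). Srsf6 was called under 5 of 10 other ways of processing, among them DESeq2 (adjusted p = 0.00976). With a library left out, its log2 fold change ran from -1.19 (without WT2) to -0.46, which is under 1.5-fold.

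Srsf1, the SR protein the study examined most closely as a partner of Npac, did not differ detectably. It had 605 and 416 CPM in WT cells against 647 and 527 CPM in Npac KO cells, and the genotypes overlapped. The log2 fold change was 0.20 (SE 0.24, edgeR adjusted p = 0.573). Srsf1 lies on chromosome 11, and its value was -0.30 once the chromosome median described below was removed. Without WT2 it was -0.05, so that no direction can be given. The paper reports lower Srsf1 in Npac KO cells by RT-qPCR and Western blot, a fall not seen in the values as fitted. Srsf2, which had one of the highest levels per length in the family (136 FPKM), had 536 and 324 CPM in WT cells against 429.6 and 327 CPM in Npac KO cells. Those values overlapped (log2 fold change -0.18, SE 0.27, adjusted p = 0.662), and the sign turned without WT1 (0.20). The other 6 SR genes lay between -0.26 and 0.36 on the log2 scale, and none was called.

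Among hnRNP genes, Hnrnpa1 rose, and it was also the most highly expressed of all 67 genes per length (423 FPKM on average). Hnrnpa1 binds splicing silencers and shuttles between nucleus and cytoplasm. Its level was 1044 and 842 CPM in WT cells against 1939.6 and 1558 CPM in Npac KO cells, or 185% of the WT mean, with no overlap. The log2 fold change was 0.89 (SE 0.22, edgeR adjusted p = 0.0256), and it was 0.72 without KO1, where the adjusted p was 0.159. Hnrnpa1 (ENSMUSG00000046434) lies on chromosome 15 from 103148859 to 103155119.

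Hnrnpab, a shuttling RNA-binding protein and the second in level per length (220.1 FPKM), had 459 and 406 CPM in WT cells against 925 and 681 CPM in Npac KO cells. It was called higher, with a log2 fold change of 0.89 (SE 0.22, edgeR adjusted p = 0.0252) and no overlap of the genotypes. It lies on chromosome 11 (51490927 to 51497674), and with the chromosome median removed the value was 0.40 (adjusted p = 0.218). Without KO1 it was 0.65 (adjusted p = 0.233).

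Hnrnph3, a member of the hnRNP H and F group that binds G-rich RNA, fell. The WT libraries had 119 and 178 CPM and the KO libraries 73.1 and 90.5 CPM, 55.1% of the WT mean. Neither KO value reached the WT range, and the log2 fold change was -0.86 (SE 0.24, edgeR adjusted p = 0.0399). This call was lost with upper-quartile normalization (adjusted p = 0.0517), with limma-trend (0.0651) and with any library but WT1 left out, where the log2 fold change lay between -1.01 and -0.54. The gene overlaps Rufy2 on the opposite strand, whose reads came to 39.5% of those of Hnrnph3, and no source says whether counting used the strand.

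Hnrnpk, which binds C-rich RNA and was examined by the study with Npac, had 985 and 592 CPM in WT cells against 842 and 651 CPM in Npac KO cells. Both KO values fell inside the WT range (log2 fold change -0.08, SE 0.27, edgeR adjusted p = 0.862), and the sign turned without WT1 (0.31) or KO2 (0.11). Hnrnpd, named here after its values were seen, binds AU-rich RNA and was below WT cells without passing the test, with 396 and 319 CPM against 256 and 198 CPM (log2 fold change -0.65, SE 0.21, edgeR adjusted p = 0.0635). The remaining hnRNP genes lay between -0.44 and 0.32, and the genotypes overlapped in 12 of the 20.

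**Figure D3:**
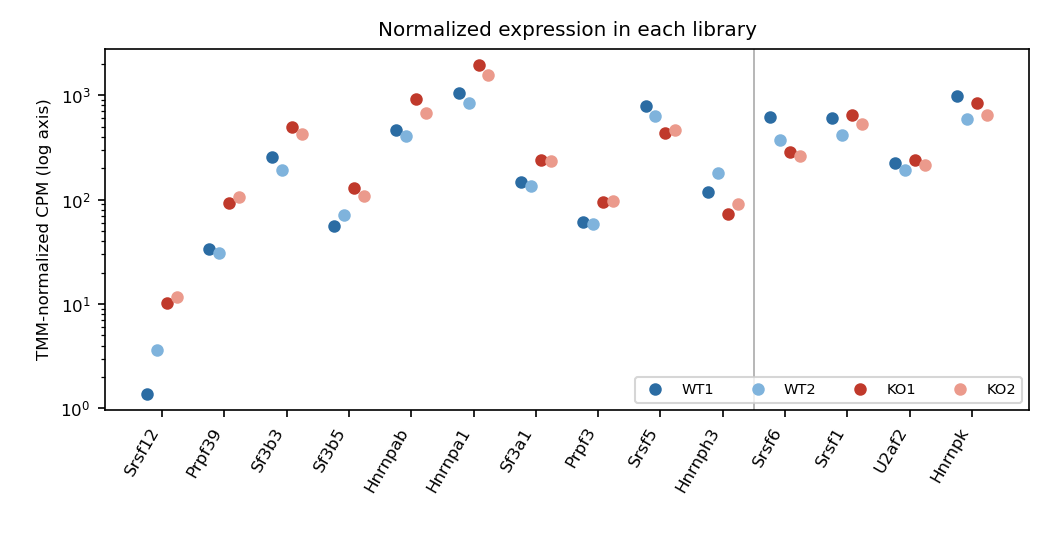
TMM-normalized CPM on a log axis in each library for the 10 genes called (left of the grey line) and for Srsf6, Srsf1, U2af2 and Hnrnpk (right of it); each point is a library. The red KO points stand clear of the blue WT points in all 10 called genes and in Srsf6, and overlap with them for Srsf1, U2af2 and Hnrnpk.

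The SF3 complexes are the protein part of the U2 snRNP that holds the branch point. Of 9 SF3 genes, 3 rose: Sf3b3, a large scaffold subunit of SF3b, Sf3b5, a small subunit of the same complex, and Sf3a1, a subunit of SF3a. For Sf3b3 the level was 255 and 191 CPM in WT cells against 491 and 421 CPM in Npac KO cells, 204% of the WT mean, with a log2 fold change of 1.03 (SE 0.21, edgeR adjusted p = 0.0150). The genotypes were well apart. Sf3b3 (ENSMUSG00000033732) lies on chromosome 8 from 111536871 to 111573419, and its value was 0.52 (adjusted p = 0.123) once the chromosome median was removed and 0.91 (adjusted p = 0.0802) without KO1. It overlaps Cog4 on the opposite strand, whose reads came to 38.2% of its own. Cog4 had 1350, 1837, 2316 and 2965 reads in WT1, WT2, KO1 and KO2, the same direction as Sf3b3. The part of Cog4 reads in the value for Sf3b3 was not tested.

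Sf3b5 had 55.7 and 71.0 CPM in WT cells against 130.0 and 108 CPM in Npac KO cells, with no overlap. The log2 fold change was 0.91 (SE 0.20, edgeR adjusted p = 0.0198), and with the median of chromosome 10 removed it was 0.99, still called. It was not called without KO1 (0.76, adjusted p = 0.185) or KO2 (1.05, adjusted p = 0.0583). Sf3a1 had 149 and 135 CPM in WT cells against 238 and 233 CPM in Npac KO cells, a tight pair on either side. Its log2 fold change was 0.73 (SE 0.17, edgeR adjusted p = 0.0239), and 0.24 (adjusted p = 0.365) with the median of chromosome 11 removed. Without KO1 or KO2 its adjusted p was 0.201 and 0.166.

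The other 6 SF3 genes were not called. Sf3b2, which is bound to the branch region, had 386 and 372 CPM in WT cells against 397 and 362 CPM in Npac KO cells (log2 fold change 0.003, SE 0.18). Sf3b4, its partner in SF3b, had 114 and 101 CPM against 118 and 110.1 CPM (0.09, SE 0.18), and Sf3b6, which contacts the branch point, had 78.5 and 95.7 CPM against 71.0 and 68.6 CPM (-0.32, SE 0.19, edgeR adjusted p = 0.251). The genotypes overlapped for Sf3b2 and Sf3b4, while for Sf3b6 the KO pair was wholly below the WT pair. Sf3b1, the subunit that clamps the branch point and is often mutated in blood cancers, was at -0.20 (SE 0.24), and its genotypes overlapped.

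None of the 11 Snrp genes, which encode the Sm ring proteins and core proteins of the U1 and U2 snRNPs, was called, and 1 had an unadjusted p under 0.05. Snrpb, the highest in the family per length (120.5 FPKM), had 236 and 190.4 CPM in WT cells against 274 and 199 CPM in Npac KO cells (log2 fold change 0.15, SE 0.22, edgeR adjusted p = 0.669). Those values overlapped, and the sign turned without KO1 (-0.11). Snrpg, a Sm ring protein, had 139 and 189.6 CPM against 137 and 119.8 CPM (-0.36, SE 0.21, adjusted p = 0.247), and was called lower only when WT1 was left out.

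Snrpf, a further Sm ring protein, had the largest value in the family. It had 47.5 and 65.4 CPM in WT cells against 86.4 and 84.9 CPM in Npac KO cells, with a log2 fold change of 0.60 (SE 0.21, edgeR adjusted p = 0.0761). The genotypes did not overlap, and the gene was called under 2 of 10 other settings, among them no filter on low counts (edgeR adjusted p = 0.0447). With a library left out, its log2 fold change ran from 0.36, which is under 1.5-fold, to 0.85 (without WT2). It shares nearly all of its coding sequence with processed pseudogenes, intronless copies of its mRNA, and the reads on those copies moved in the opposite direction. Snrpf itself had 726, 1142, 1343 and 1470 reads in WT1, WT2, KO1 and KO2, while its 4 matched pseudogenes had 300, 440, 34 and 12. They held 29.2% and 27.8% of the summed reads in WT cells and 2.47% and 0.810% in Npac KO cells. Almost all of these reads were on Gm13092 (ENSMUSG00000085787), with 299, 437, 12 and 11 reads.

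With gene and pseudogenes summed, the log2 fold change was 0.14 (edgeR adjusted p = 0.645), against 0.60 for the gene alone. The sequences show how little sets the copy apart: over 258 aligned bases of the GENCODE transcripts the pseudogene differed from the coding sequence at 3 bases and had no gap, an identity of 98.8%. The capitals mark the bases that differ.
Snrpf coding bases 4 to 261: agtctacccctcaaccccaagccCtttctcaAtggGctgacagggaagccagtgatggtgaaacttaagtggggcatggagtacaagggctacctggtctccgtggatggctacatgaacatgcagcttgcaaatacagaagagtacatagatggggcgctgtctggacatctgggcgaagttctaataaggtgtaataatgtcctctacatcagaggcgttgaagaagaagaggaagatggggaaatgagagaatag
Gm13092 bases 3 to 260: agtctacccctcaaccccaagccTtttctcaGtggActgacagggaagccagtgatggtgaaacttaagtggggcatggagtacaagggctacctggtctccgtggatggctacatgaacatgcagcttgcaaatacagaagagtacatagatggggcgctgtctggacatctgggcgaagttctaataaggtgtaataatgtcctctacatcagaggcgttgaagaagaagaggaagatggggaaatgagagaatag
The 3 differing bases lie close together near the start of the alignment, and the rest holds none. How the authors' counting placed reads that fit both copies is not stated, so the split of these reads between gene and copy is uncertain, and its part in the value for Snrpf was not tested beyond the sum.

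Such copies were common in the set: 112 processed pseudogenes matched 32 of the 67 genes at 90% identity over 60% of their length. In 8 genes they held over 5% of the summed reads in any library. For Hnrnpa3, an hnRNP A/B family member, the pseudogenes held most reads, with 75.3% and 72.1% in WT cells and 81.4% and 72.1% in Npac KO cells, so the gene's own level (83.3 and 67.9 against 79.7 and 109 CPM, log2 fold change 0.32) rests on a minority of the reads. Shares were 9.82% to 10.2% for Hnrnpk, 9.09% to 11.0% for U2af1 and 3.75% to 4.54% for Hnrnpa1, and differed little between the genotypes. Summing genes with their pseudogenes gave 8 genes called higher and 2 called lower, the same numbers as the genes alone.

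**Figure D4:**
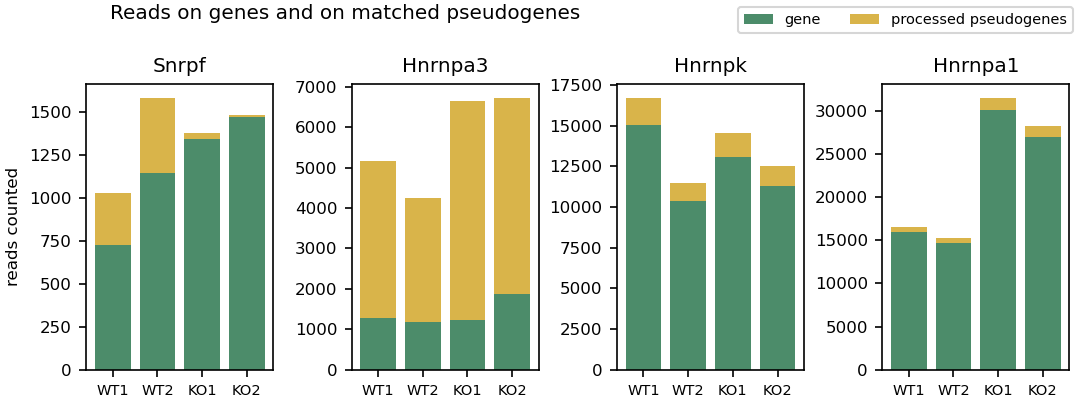
Reads counted per library on 4 genes (green) and on their matched processed pseudogenes (yellow), stacked; the vertical axes are linear, start at 0 and differ between panels. For Snrpf the yellow part is large in both WT libraries (300 and 440 reads) and small in both KO libraries (34 and 12), while for Hnrnpa3 it is most of each bar.

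Of 13 Prpf genes, 2 rose and 0 fell. Prpf39, a U1 snRNP-associated factor, had 33.4 and 30.5 CPM in WT cells against 93.1 and 106 CPM in Npac KO cells, 311% of the WT mean. The genotypes were far apart relative to the spread within each, and the log2 fold change was 1.64 (SE 0.19, edgeR adjusted p = 0.00222), the smallest adjusted p of the 66 genes. It was called under every alternative tried. Prpf39 (ENSMUSG00000035597) lies on chromosome 12 from 65083107 to 65110160 and overlaps Fkbp3 on the opposite strand, which had 2818, 3176, 3492 and 3346 reads in WT1, WT2, KO1 and KO2 against 510, 533, 1447 and 1833 for Prpf39. Fkbp3 thus held 297% as many reads as Prpf39, and reads of the neighbour within the shared stretch cannot be told apart without strand.

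Prpf3, a protein of the U4/U6 snRNP, had 61.5 and 57.7 CPM in WT cells against 94.1 and 96.7 CPM in Npac KO cells. It rose by a log2 fold change of 0.68 (SE 0.17, edgeR adjusted p = 0.0307), and lost the call without KO1 or KO2, where the value was 0.69 and 0.67 and the adjusted p 0.236 and 0.247. Its value thus hardly depended on the library left out, while the p did. Prpf3 (ENSMUSG00000015748) lies on chromosome 3 from 95737436 to 95763197.

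Prpf8, the large protein at the catalytic centre of the U5 snRNP, had 743 and 489.7 CPM in WT cells against 1122 and 892 CPM in Npac KO cells. There was no overlap, but the gene was not called (log2 fold change 0.71, SE 0.25, edgeR adjusted p = 0.0800). It was called under 3 of 10 other settings, and the value was 0.21 with the median of chromosome 11 removed. Prpf6, a bridging protein of the U4/U6.U5 complex, had 145 and 147 CPM in WT cells against 155 and 149 CPM in Npac KO cells. The KO pair lay just above the WT pair, and the gene was not called (0.06, SE 0.17, edgeR adjusted p = 0.840). Prpf6 overlaps Zfp512b on the opposite strand, whose reads came to 49.4% of those of Prpf6. Prpf19, the ubiquitin ligase that names the Prp19 complex, had 289 and 327 CPM against 229 and 218 CPM, the lowest value of the family (-0.46, SE 0.18, adjusted p = 0.102) with no overlap of the genotypes. The other 8 Prpf genes lay between -0.23 and 0.46.

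U2af2 binds the polypyrimidine tract and U2af1 the AG at the end of the intron. U2af2 had 224 and 193 CPM in WT cells against 241 and 216 CPM in Npac KO cells, which overlapped (log2 fold change 0.13, SE 0.18, edgeR adjusted p = 0.643). U2af1 had 143 and 166 CPM against 193 and 197 CPM, with no overlap but not past the test (0.34, SE 0.18, adjusted p = 0.210).

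Position in the genome moved with the calls. In both KO libraries the genes of chromosomes 8 and 11 were shifted as a whole. Each chromosome's median log2 difference from WT cells was taken relative to the median over all tested genes of that library. On chromosome 11 it was 0.51 in KO1 and 0.48 in KO2, and on chromosome 8 it was 0.51 and 0.52. Every other chromosome with at least 50 tested genes lay between -0.20 and -0.004 on this relative scale. Of the 67 splicing genes, 7 lie on the shifted chromosomes: Srsf1, Srsf2, Hnrnpab, Hnrnph1, Prpf8 and Sf3a1 on chromosome 11 and Sf3b3 on chromosome 8. Their median log2 fold change was 0.71 with 3 called higher, against 0.06 with 5 higher and 2 lower for the 59 tested genes elsewhere. Over all genes on these chromosomes the median was 0.50, with 645 of 2434 called higher and 111 lower.

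After the median of each chromosome was taken out of each KO library, 0 of the 7 were called. Over all 66 genes, 5 were then called higher (against 9.33% of all genes tested) and 0 lower (against 9.81%). Srsf12, Prpf39, Sf3b5, Hnrnpa1 and Prpf3 were the 5. Srsf5 and Hnrnph3, on chromosomes 12 and 10, were at -0.57 (edgeR adjusted p = 0.0759) and -0.78 (adjusted p = 0.0590). Both KO libraries carried the shift, so that it and the genotype cannot be told apart for the genes on these chromosomes.

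**Figure D5:**
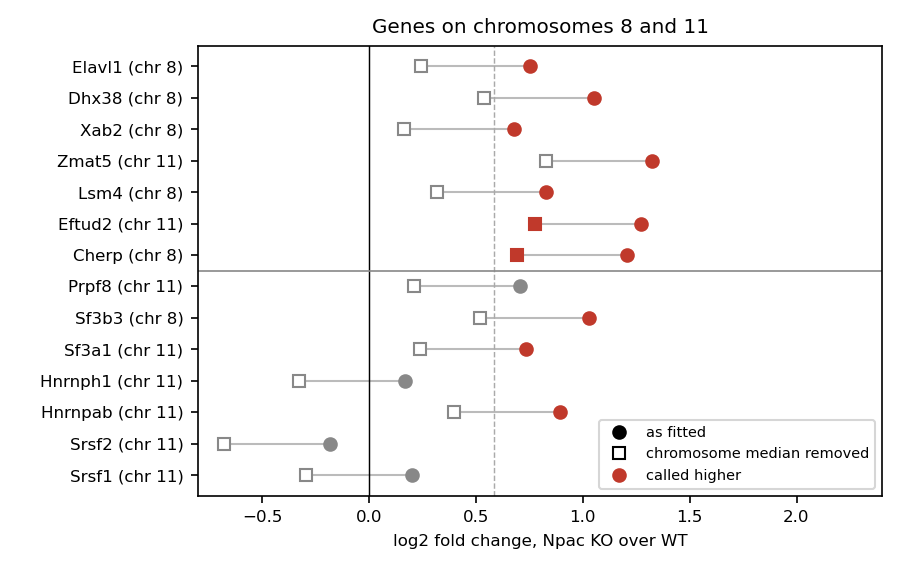
Log2 fold change, Npac KO over WT, of the 7 splicing genes on chromosomes 8 and 11 (lower part) and of the 7 further spliceosome genes there that were called (upper part); circles show the values as fitted, squares those with the chromosome median removed, red marks genes called higher and the dashed line a 1.5-fold change. Sf3b3, Sf3a1 and Hnrnpab are red circles with open squares, and only Eftud2 and Cherp keep a red square.

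Promoter sequence was available for 58 of the 67 genes (RefSeq, build GRCm38.p6). In the 250 bases before the start, searched on both strands, the ETS motif CCGGAAG was present in 18 of 58 (31.0%) against 10.4% of 16770 protein-coding genes, and the NRF1 motif (GCGC, any 2 bases, GCGC) in 15 of 58 (25.9%) against 7.94%. The core of the cAMP response element, TGACG, was present in 26 (44.8%, against 23.1%), CCAAT in 28 (48.3%, against 39.5%) and TATAAA in 5 (8.62%, against 13.5%). ETS and NRF1 motifs are common in promoters of widely expressed genes, and a match is a description of the letters only. Of the 8 genes called higher, 7 had a window, with ETS in 3, NRF1 in 3 and TGACG in 1. Both genes called lower had a window, with ETS in 1 and TGACG in 1.

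The 150 bases before the start are shown for the Prpf genes that rose, Prpf39 and Prpf3, and for the SR genes with the lowest values, Srsf5 and Srsf6, with the motifs in capitals.
Prpf39, chr12:65036184-65036333, plus strand: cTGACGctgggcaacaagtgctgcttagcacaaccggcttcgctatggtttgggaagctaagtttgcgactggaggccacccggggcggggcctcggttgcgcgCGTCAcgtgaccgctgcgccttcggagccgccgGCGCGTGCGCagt
Prpf3, chr3:95855886-95856035, minus strand: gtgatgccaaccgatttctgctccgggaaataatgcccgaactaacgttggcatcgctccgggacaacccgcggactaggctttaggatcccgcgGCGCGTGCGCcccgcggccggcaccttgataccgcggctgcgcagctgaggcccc
Srsf5, chr12:80945349-80945498, plus strand: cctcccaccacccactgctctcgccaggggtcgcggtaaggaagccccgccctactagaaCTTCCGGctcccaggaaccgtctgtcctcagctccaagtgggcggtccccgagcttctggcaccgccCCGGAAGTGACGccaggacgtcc
Srsf6, chr2:162931358-162931507, plus strand: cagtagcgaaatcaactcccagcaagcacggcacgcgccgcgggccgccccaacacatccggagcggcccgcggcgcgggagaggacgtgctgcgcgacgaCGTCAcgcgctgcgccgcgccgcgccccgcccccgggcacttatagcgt
Prpf39 and Prpf3 each hold the NRF1 motif, Prpf39 also has TGACG near the far end and its reverse complement closer to the start, and Srsf5 carries the ETS motif on each strand, the second copy directly followed by TGACG. Srsf6 holds TGACG alone, as its reverse complement. No motif overlapped another in these windows. RefSeq listed 2 starts for Prpf3, of which 1 is shown. The coordinates of these windows are on GRCm38.p6, while the gene positions above are those of the deposited table, in which 2 of the 67 genes had the same start as in the GRCm38 annotation.

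A wider list of 121 spliceosome and splicing regulator genes, chosen by function, was fully tested. Of these, 12 were called higher (9.92%, against 11.0% of all genes tested) and 6 lower (4.96%, against 10.7%), with a median log2 fold change of 0.05. The KO pair was wholly above the WT pair in 42 genes (34.7%, against 33.2%) and wholly below in 35 (28.9%, against 32.5%). By group, calls higher and lower came to 0 and 0 of 4 for U1-associated genes, 1 and 0 of 12 for U2-associated genes, 1 and 0 of 13 for U5 and tri-snRNP genes, 1 and 0 of 7 for LSm genes, 1 and 0 of 10 for the minor spliceosome, 3 and 2 of 23 for the Prp19 complex and step factors, 2 and 1 of 16 for SR-related genes and SR kinases, and 3 and 3 of 36 for other regulators. The counts moved with single libraries, from 3 (without KO1) to 21 (without WT1) higher and from 1 (without KO2) to 17 (without WT2) lower.

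Genes of the wider list that rose included Eftud2, the GTPase that works in the U5 snRNP with Prpf8, which was itself not called. Eftud2 had 195 and 215 CPM in WT cells against 522 and 471 CPM in Npac KO cells (log2 fold change 1.27, SE 0.18, edgeR adjusted p = 0.00484). Cherp, a U2-associated protein, had 105 and 100.3 CPM against 247 and 227 CPM (1.21, SE 0.18, adjusted p = 0.00494). Both lie on the shifted chromosomes, and both were still called with the chromosome median removed, at 0.78 and 0.69. Zmat5 of the minor spliceosome (1.32, adjusted p = 0.0152) and the helicase Dhx38 (1.05, adjusted p = 0.0266) also lie there, and lost the call. Esrp1, an epithelial splicing regulator on chromosome 4, rose from 21.6 and 16.8 CPM to 82.0 and 50.2 CPM (1.78, SE 0.28, adjusted p = 0.00643).

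Among regulators that fell, Rbm5, a regulator of exon use in apoptosis genes, had 222 and 182 CPM in WT cells against 61.3 and 73.8 CPM in Npac KO cells (log2 fold change -1.58, SE 0.20, edgeR adjusted p = 0.00317), well outside the WT range. Rbm39, a U2af2-like regulator, had 1004 and 703 CPM against 428 and 379 CPM (-1.08, SE 0.23, adjusted p = 0.0156). Mbnl2, which represses embryonic exon patterns (-1.08, adjusted p = 0.0265), Cwc22, which links splicing to the exon junction complex (-0.88, adjusted p = 0.0154), and Bud31 of the activated spliceosome (-0.83, adjusted p = 0.0230) fell as well. The other genes called were Lsm4, Xab2, Dhx16, Srrm1, Srpk1, Khsrp and Elavl1 (higher) and Clk1 (lower). With chromosome medians removed, Lsm4, Xab2 and Elavl1, all on chromosome 8, were at 0.32, 0.17 and 0.24 on the log2 scale and lost the call, as did Clk1 (-0.60, edgeR adjusted p = 0.0570). Other genes of the wider list gained a call in that fit. Pdcd7 (0.65, against 0.45 before removal) and Acin1 (0.76, against 0.64) were called higher. Zrsr1 (-1.01, against -0.52 before removal) and Clk4 (-1.07, against -0.58) were called lower. Both of the latter lie on chromosome 11, whose upward median was taken out, and neither was called before removal. With chromosome medians removed, the wider list had 9 genes called higher and 7 lower. Further genes whose proteins the study examined with Npac were Ncl, Ddx5 and Sfpq, and none was called (log2 fold changes 0.33, 0.02 and 0.84). In WT1, WT2, KO1 and KO2, Ncl had 1651, 1482, 2169 and 1778 CPM. Ddx5 had 1569, 1047, 1362 and 1291 CPM, and Sfpq had 363, 180.0, 468 and 502 CPM. The paper reports lower Nucleolin, the product of Ncl, in Npac KO cells by RT-qPCR and Western blot. Here the KO pair of Ncl lay wholly above the WT pair.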

How the data were processed

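RNA-seq of E14 cells was analysed in 2 WT and 2 Npac KO libraries. The count table deposited by the authors holds unnormalized reads per gene, from paired-end sequencing. According to the submitters' processing notes, reads were mapped with HISAT2 2.0.5 to mm10 and counted with featureCounts 1.5.0-p3, while the methods text gives another HISAT version; the strand setting is not given in the sources used here. The authors also deposited FPKM values computed from the same counts. Positions are those of the deposited table, whose starts match GRCm38 for 2 of 67 genes (the span length matches for 65), so its build is not identified here. The tables held no other columns of per-sample values (0 unused) and no comparisons by the authors.

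Counts were fitted by edgeR 4.0.16 under R 4.3.3, using TMM factors, the filterByExpr filter and quasi-likelihood F tests for 18157 genes, with Benjamini-Hochberg adjustment over all of them. A call needed an adjusted p below 0.05 and more than a 1.5-fold change, as in the study's methods. The common biological coefficient of variation was 0.235. CPM are counts scaled to library size by TMM, and the standard error is the log2 fold change divided by the square root of the quasi-F statistic. The fit was also run on simulated counts with known changes, drawn with less spread between libraries than in these data. That run checked the code only and does not measure how often calls are wrong here. Total counts per library limit the precision only for genes with few reads.

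Alternatives were DESeq2 1.42.0, upper-quartile and median-of-ratios normalization, no filter or at least 10 reads in every library, a replicate block, limma 3.58.1 (limma-trend on log2(FPKM + 1), mean FPKM of at least 0.5), protein-coding genes only, chromosome medians removed as offsets, sums with pseudogenes, and each library left out. Pseudogenes were matched to GENCODE vM21 transcripts (blastn 2.17.0), with limits of 90% for identity and 60% for the aligned part.

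Named genes were all called members, those the study examined, the 2 highest by mean FPKM and the highest and lowest by fold change (mean count of at least 100) in each family, and, of the wider list, Ncl, Ddx5, Sfpq and at most 5 called in each direction. The members and lists were chosen with earlier results of these data known. Splicing events were not analysed here, and 1 gene that the rule names is not reported here.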

Additional observations from a re-analysis of the deposited data

How the results depend on the processing

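Against 8 genes called higher, the count was 5 with chromosome medians removed and ran from 2 (without KO1) to 11 (without either WT library). Against 2 called lower, it was 4 with DESeq2, 4 with no filter on low counts, 1 with upper-quartile normalization, 0 with limma-trend on FPKM, 0 with chromosome medians removed, and 0 (without KO1 or KO2) to 6 (without WT2). With 1 library left out, its arm has 1 sample, assumed to vary like the other genotype. In the wider list, 12 higher became 3 to 21 and 6 lower became 1 to 17 with a library left out, and 17 were higher and 11 lower with no filter. Over the same omissions, the median log2 fold change ran from -0.24 to 0.24 for SR, -0.24 to 0.14 for hnRNP, 0.024 to 0.36 for Snrp, -0.062 to 0.15 for SF3, 0.15 to 0.21 for Prpf and 0.19 to 0.28 for U2af genes, which was 0.14 with no filter (U2af1l4 included) and 0.30 with chromosome medians removed.

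Signs turned for genes near 0. Sf3b2 was -0.0037 with DESeq2, -0.0037 with median-of-ratios size factors, -0.0030 on FPKM and -0.029 on protein-coding genes, and -0.074 to 0.083 with a library left out. Srsf1 was -0.30 with chromosome medians removed and -0.049 to 0.47 with a library left out. The omissions gave -0.40 to 0.31 for Hnrnpk, -0.0019 to 0.15 for Sf3b4, -0.11 to 0.37 for Snrpb and -0.51 to 0.20 for Srsf2. The cause of these changes was not tested. Of the values for single genes, 297 kept direction and side of the threshold, 24 lost and 14 gained a call, and 15 turned.

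The replicate numbers only name the libraries: the difference WT1 minus WT2 correlated with KO1 minus KO2 at 0.33 over genes, and with 2 pairs this does not show a pairing. With the replicate block, 10 members were called higher and 4 lower, and in the wider list 18 higher and 10 lower.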
